A study of Mus musculus with 3 samples.

Results

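The 37 genes described here act in DNA repair and damage signalling, and were taken by symbol from the 31054 features of the count tables, with every one of them listed once. They were measured as UMI counts (unique molecular identifiers, 1 per captured RNA molecule) in lung cells from 3 libraries of 10x 3' single-cell RNA sequencing. Each group is 1 library: wild-type without irradiation, wild-type after irradiation, and a conditional knockout that was irradiated and also received a drug. The labels name neither the gene knocked out, the driver of the conditional allele, the drug, the dose, the time after exposure, the age nor how many mice a library holds. The knockout therefore cannot be checked in the counts, and genotype and drug cannot be told apart. Values of the 3 libraries are always given in that order, and the third is called the irradiated knockout library for short.

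Ionizing radiation breaks one or both strands of DNA and damages bases. The MRN complex and the kinases ATM and ATR detect the lesions and signal through CHK1, CHK2 and p53. Double-strand breaks are rejoined by end joining or copied from the sister chromatid by homologous recombination, single-strand breaks and damaged bases are handled by base excision enzymes, bulky lesions by nucleotide excision, mispairs by mismatch repair, and lesions left in front of a fork are copied over by translesion polymerases. Much of this response runs through modification of proteins already present, while a smaller set of repair genes is transcribed by p53 or with the S phase programme.

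In total 15485, 7084 and 11292 barcodes carried 85984536, 45800421 and 76667310 UMIs. Of these, 13091, 5805 and 9886 cells had at least 250 genes and at most 15% mitochondrial UMIs, and 51, 37 and 50 of their barcodes also occur in another library. Cells were placed in 6 gates by marker UMIs: T (1859, 2674 and 5103 cells), B (1425, 571 and 763), NK (318, 339 and 463), Pecam1/Cdh5 (2945, 401 and 695), fibroblast (3950, 424 and 963) and epithelial (448, 118 and 190). Sums of 8 markers per cell type, none used for gating, were each highest in the gate of that name in all 3 libraries. In the Pecam1/Cdh5 gate 668 of 2945, 294 of 401 and 419 of 695 cells had a UMI of the leukocyte gene Ptprc, and its 8 summed endothelial markers stood at 6046, 1365 and 2172 CPM (UMIs per 1000000 UMIs of the gate) against 322, 1496 and 1649 CPM for 8 T cell markers. Differences between libraries in this gate are therefore given also for its 2277, 107 and 276 cells with no Ptprc UMI, where the endothelial markers stood at 7414, 4922 and 5528 CPM. Epithelial markers in these same cells summed to 22768, 33943 and 8457 CPM, and their part in the results of this set was not tested. They also exceeded the B markers in the B gate, at 4352, 9003 and 1967 against 1224, 1510 and 1380 CPM. In the non-irradiated library they stood at 4454 CPM in the T gate (T markers 2366) and 6390 in the fibroblast gate (fibroblast markers 6263). Erythroid markers in the NK gate of the irradiated knockout library stood at 15102.5 CPM (NK markers 9617). The part of these was not tested. The gates are not exclusive, and 12.5%, 7.44% and 7.9% of gated cells fell in more than 1. The share was largest in the Pecam1/Cdh5 gate (27.7%, 55.4% and 54.0%) and the epithelial gate (43.5%, 28.0% and 39.5%). Among Pecam1/Cdh5 cells with no Ptprc UMI it was 20.2%, 25.2% and 25.7%. In the whole Pecam1/Cdh5 gate, cells with a Car4 or Ednrb UMI numbered 1027, 66 and 138. Those with neither but a Gpihbp1 or Plvap UMI numbered 1244, 23 and 114. The part of this shift in makeup in the results of the gate was not tested.

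UMIs were summed over the cells of a gate and scaled to CPM. A single library per group leaves nothing to test against, so all intervals are exact 95% Poisson intervals, which cover counting error only. In a pair of libraries a gene was taken as measured in a gate when its mean CPM predicts at least 10 UMIs in the library with the smaller total. The word apart is used where the libraries differ by at least 1.5-fold after 5 CPM are added to each, and the exact interval of the plain ratio leaves out 1. Log2 ratios below are on this scale with 5 CPM added, which understates changes of low genes. The smallest two-sided exact sign p that 3 libraries allow is 0.25, so no p-value is given for differences between gates either.

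**Figure D1:**
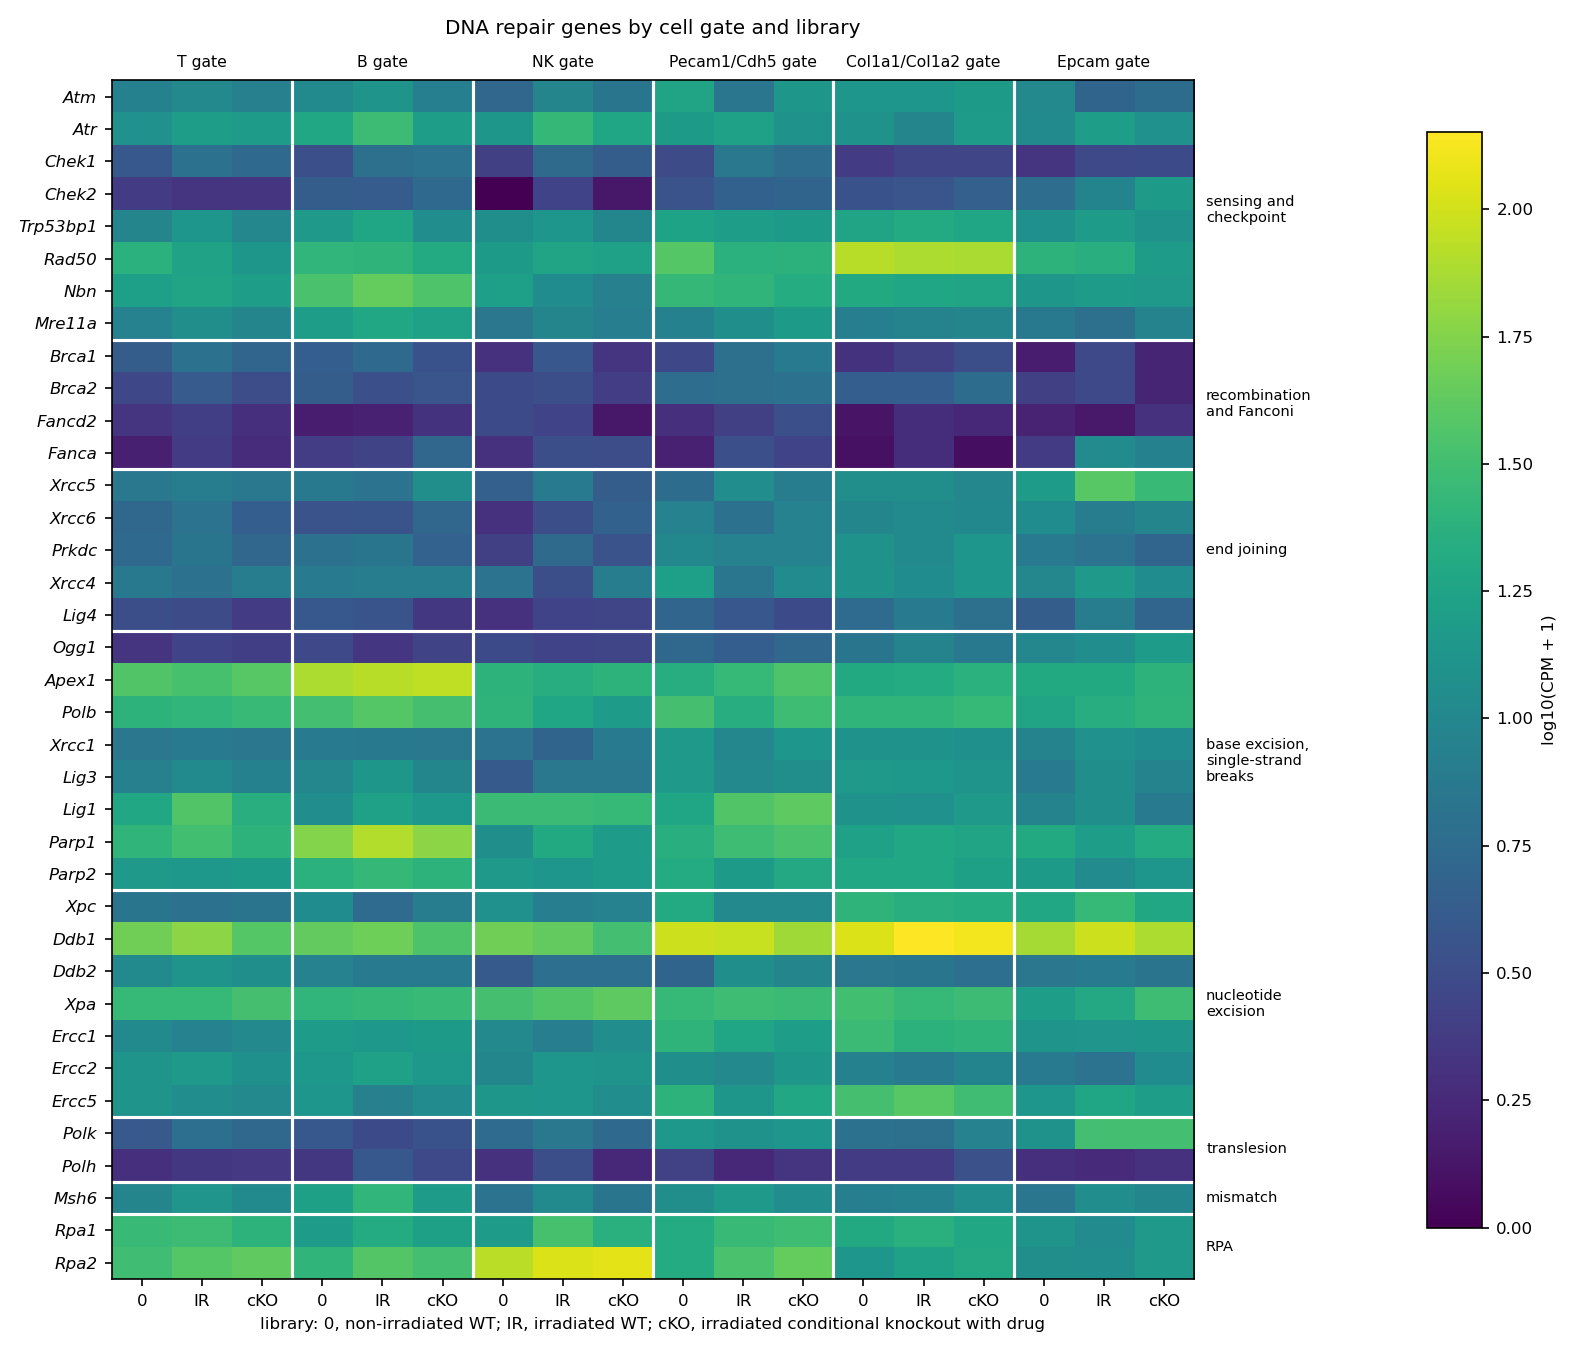
Level of each of the 37 genes in each gate and library, as log10 of CPM + 1 (colour scale). Rows are genes in blocks by repair pathway, columns are the 3 libraries within each of the 6 gates; the same gene can be read across columns, while rows are not corrected for gene length. Rad50 of the fibroblast (Col1a1/Col1a2) gate is bright in all 3 libraries (82.7, 76.3 and 74.7 CPM), as are Apex1 in the B gate and Rpa2 in the NK gate.

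Most repair genes had at least 10 UMIs in each library of a gate: 36 of 37 in the T gate, 34 in the Pecam1/Cdh5 gate, 32 in the fibroblast, 31 in the epithelial, 30 in the B and 19 in the NK gate. A gene is said to lead in a gate when its CPM, with 5 CPM added, was at least 1.5-fold the mean of the other 5 gates in all 3 libraries. Of the 37, 12 led somewhere. In the fibroblast gate 5 of 32 led (Rad50, Xpc, Ddb1, Ercc1 and Ercc5) where 24.4% of all genes did, in the B gate 3 of 30 (Nbn, Apex1 and Parp1) where 9.65% did, in the epithelial gate 3 of 31 (Xrcc5, Ogg1 and Polk) where 14.3% did, and in the NK gate 1 of 19 (Rpa2) where 8.75% did. In the T gate 0 of 36 led, against 4.06% of all genes, and in the Pecam1/Cdh5 gate 0 of 34, against 5.02%. These shares are near or below those of all genes, so nothing particular to repair genes is read from them. Just inside the limit were Polk in the epithelial gate (1.54 in its lowest library) and Xpc in the fibroblast gate (1.61). Just outside were Mre11a in the B gate (1.47), Chek2 in the epithelial gate (1.42), Ddb2 in the T gate (1.4) and Msh6 in the B gate (1.38). Of 88 other repair genes, listed for comparison, 11 of 67 led in the B gate, 10 of 74 in the fibroblast gate, 3 of 54 in the NK gate, and 0 in the other 3 gates.

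**Figure D2:**
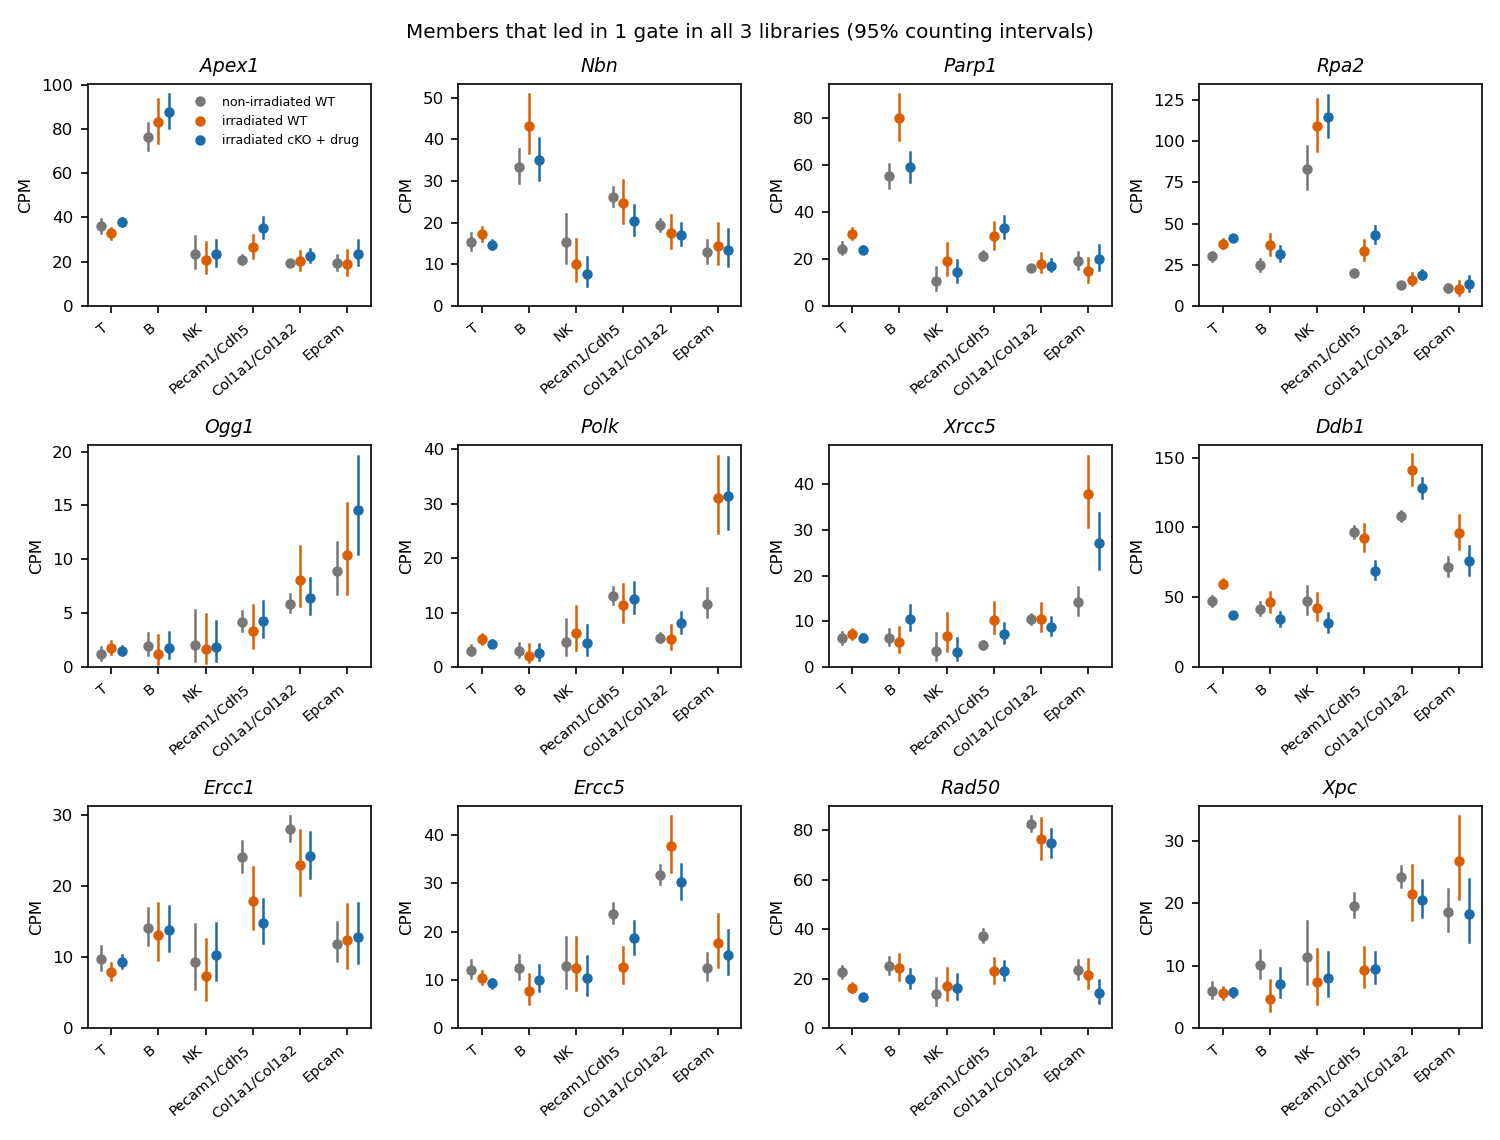
CPM of the 12 genes that led in 1 gate, in all 6 gates (x axis) and 3 libraries (colours); points are CPM, lines are exact 95% Poisson intervals of the counts, and the y axes start at 0. Apex1 and Parp1 of the B gate, Rpa2 of the NK gate and Rad50 of the fibroblast gate stood clear of every other gate in each library, while another gate was higher for Xpc in irradiated wild-type (epithelial, 26.7 against 21.4 CPM) and for Polk in the non-irradiated library (Pecam1/Cdh5, 13.0 against 11.6 CPM).

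Between irradiated and non-irradiated wild-type, 19 of 184 values (a gene measured in a gate) were apart, 12 higher and 7 lower, which is 10.3% where 19.6% of all genes were. Between the irradiated knockout library and irradiated wild-type it was 5 of 186, 1 higher and 4 lower, where 6.89% of all genes were. With median-of-ratios scaling this split was 2 higher and 1 lower. Between the irradiated knockout library and non-irradiated wild-type it was 14 of 195, 10 higher and 4 lower, where 16.2% were. Of all genes in these pairs, 5354 values were higher and 7856 lower, 2159 higher and 2423 lower, and 4151 higher and 7395 lower. The 3 pairs share libraries and are not independent. In these pairs 38 of 421, 12 of 424 and 23 of 443 values of the 88 other repair genes were apart. Of the 37 genes, 14 were apart in no pair in any of the 6 whole gates: Trp53bp1, Mre11a, Brca2, Fancd2, Xrcc6, Prkdc, Lig4, Ogg1, Xrcc1, Lig3, Parp2, Ercc1, Ercc2 and Polh.

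By gate, irradiated against non-irradiated wild-type had 1 of 37 apart in the T gate (Lig1, higher) where 12.9% of all measured genes were, and 1 of 29 in the B gate (Xpc, lower) where 15.7% were. In the NK gate 3 of 20 were (Atr, Parp1 and Rpa1, all higher) against 18.9% of all genes, in the fibroblast gate 0 of 32 against 6.1%, and in the epithelial gate 4 of 32 (Polk, Xrcc5 and Fanca higher, Atm lower) against 25.7%. In the Pecam1/Cdh5 gate 10 of 34 were apart, 5 higher (Chek1, Xrcc5, Lig1, Ddb2 and Rpa2) and 5 lower (Atm, Rad50, Xrcc4, Xpc and Ercc5), against 38.7%, but among its cells with no Ptprc UMI only Atm and Xrcc4 (lower) and Polk (higher), 3 of 23, against 19.9%.

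The irradiated knockout library against irradiated wild-type had 2 of 37 apart in the T gate (Lig1 and Ddb1, both lower) where 2.02% of all measured genes were, and 2 of 31 in the B gate (Atr and Msh6, both lower) where 8.44% were. None were apart of 21 in the NK gate (12.5% of all genes), of 32 in the fibroblast gate (3.5%) and of 32 in the epithelial gate (9.3%). In the Pecam1/Cdh5 gate 1 of 33 was, Atm, higher, against 8.35% of all genes, and among cells with no Ptprc UMI 3 of 23 (Atm higher, Atr and Ercc1 lower) against 11.6%. Against non-irradiated wild-type the irradiated knockout library had 1 of 37 apart in the T gate (Rad50, lower; 9.6% of all genes), 0 of 35 in the B gate (15.3%), 2 of 21 in the NK gate (Nbn and Polb, lower; 9.85%), 0 of 35 in the fibroblast gate (5.45%) and 5 of 32 in the epithelial gate (Polk, Xrcc5, Fanca, Chek2 and Xpa, all higher; 25.1%). In the Pecam1/Cdh5 gate 6 of 35 were apart (Brca1, Apex1, Lig1, Ddb2 and Rpa2 higher, Xpc lower; 31.8%), and among cells with no Ptprc UMI 2 of 28 (Mre11a and Polk, higher; 14%).

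**Figure D3:**
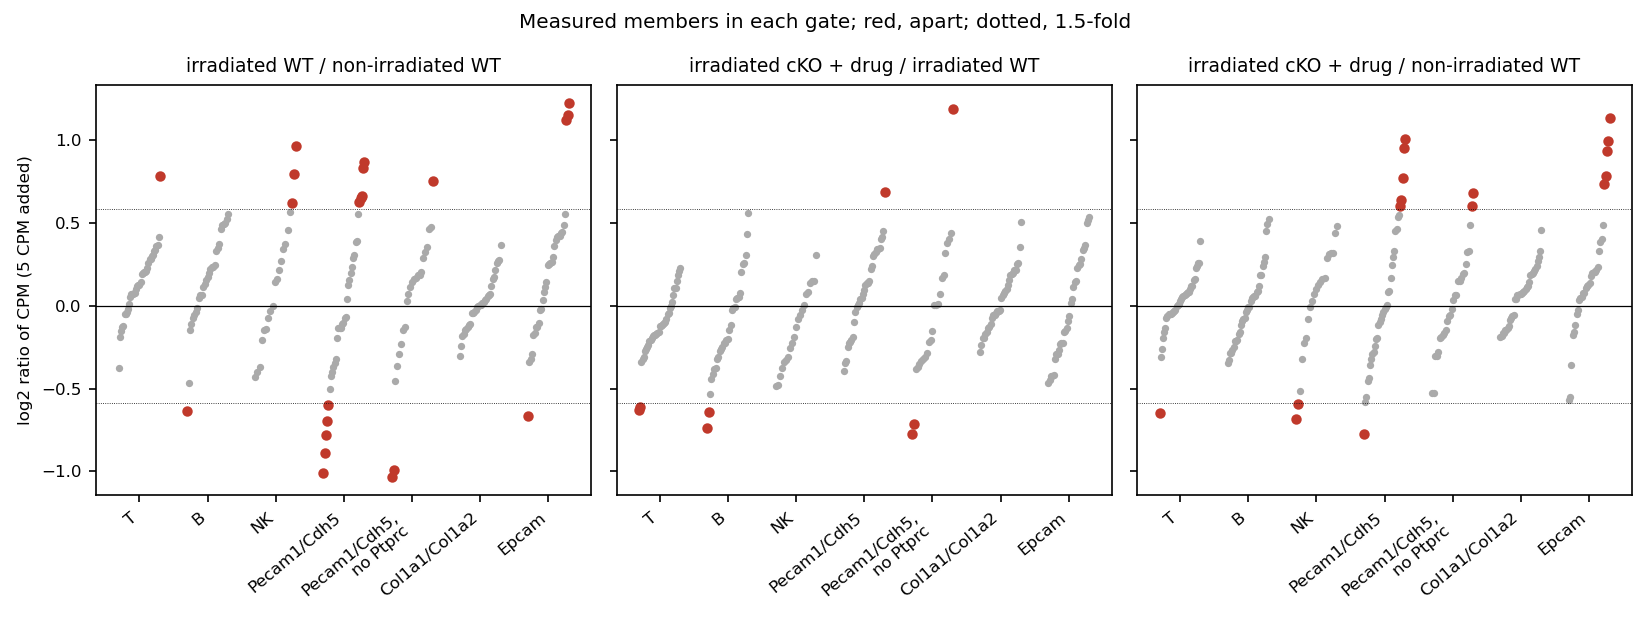
Log2 ratio of CPM (5 CPM added, y axis) of every measured repair gene in each gate for the 3 pairs of libraries; each point is 1 gene, red points are apart, and dotted lines mark 1.5-fold. Grey points crowd around 0 in the fibroblast gate in all 3 pairs, and the highest red points of the epithelial gate reach 1.22 and 1.13 in the pairs with the non-irradiated library.

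Among the genes of damage sensing and checkpoint signalling, the 3 subunits of the MRN complex, which tethers broken ends and activates ATM, had their highest levels in different cells. Rad50, its ATPase subunit, stood at 82.7 (79.7 to 85.7), 76.3 (68.4 to 84.9) and 74.7 (69.3 to 80.5) CPM in the fibroblast gate. With 5 CPM added to both sides, this was 2.98, 3.2 and 3.6 times the mean of the other gates. Nbn, the subunit that recruits ATM, led in the B gate with 33.5 (29.6 to 37.7), 43.3 (36.6 to 50.9) and 35.1 (30.3 to 40.3) CPM. Mre11a, the nuclease, was also highest in the B gate in all 3 libraries, at 15.2, 18.1 and 15.9 CPM. The fibroblast excess of Rad50 was present in both subsets of that gate: cells with Pi16 or Dpt UMIs had 87.0, 79.8 and 81.6 CPM, and cells with Npnt or Tcf21 UMIs had 70.4, 66.5 and 44.3 CPM. The last of these, on 60 UMIs, was 0.63 (0.472 to 0.827) of its non-irradiated value.

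In T cells Rad50 was lowest in the irradiated knockout library, by a margin that depended on which cells were taken. It stood at 22.6, 16.3 and 12.7 CPM in the T gate, and the irradiated knockout library was apart from the non-irradiated one (log2 ratio -0.64, plain ratio 0.56 (0.487 to 0.645)). In cells of the T gate that were in no other gate the log2 ratio was -0.39, and with doublets removed -0.40, both short of 1.5-fold. Markers of the fibroblast gate, where Rad50 leads, ran the same way between these 2 libraries: 8 summed fibroblast markers stood at 467, 91.5 and 132 CPM, none of them at 0, and their part in the result was not tested.

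The kinases at the head of the pathway differed by gate. Atr, the kinase activated by single-stranded DNA, stood at 12.9, 26.0 and 17.3 CPM in the NK gate, higher in irradiated than in non-irradiated wild-type (plain ratio 2.02 (1.22 to 3.44), 46 and 25 UMIs). In NK gate cells of no other gate the log2 ratio was 0.53 and short of 1.5-fold. In the B gate Atr stood at 18.4, 28.7 and 15.2 CPM, with the irradiated knockout library lower than irradiated wild-type (log2 ratio -0.74, plain ratio 0.53 (0.392 to 0.716)). Irradiated wild-type was thus the highest of the 3 in both gates. In the B gate of that library 8 epithelial markers summed to 9003 CPM, against 4352 and 1967 in the other libraries. Most of this is Scgb1a1 at 7921 CPM, with 97.7% of its UMIs in 1 cell; its part was not tested.

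Atm, the kinase activated by double-strand breaks, was lowest in irradiated wild-type in 2 gates. In the Pecam1/Cdh5 gate it stood at 17.1, 5.97 and 12.7 CPM, a log2 ratio of -1.01 to non-irradiated wild-type (359 and 23 UMIs). Cells with no Ptprc UMI gave 19.3, 7.22 and 22.8 CPM, so that the irradiated knockout library was 3.16-fold (1.41 to 8.33) above irradiated wild-type. The stricter set of cells with a Cdh5 UMI, no Ptprc UMI and no other gate, chosen after the data were seen, gave 23.4, 5.89 and 25.8 CPM. The irradiated wild-type value then rests on 3 UMIs in 74 cells. In the epithelial gate Atm stood at 9.25, 3.99 and 4.74 CPM, lower in irradiated wild-type (log2 ratio -0.67, 59 and 10 UMIs), but cells of no other gate gave a log2 ratio of -0.36, which is short of 1.5-fold. In the T, B, NK and fibroblast gates no pair put Atm apart.

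Chek1, the effector kinase of ATR, was low throughout (1.1 to 6.23 CPM). It was apart only in the whole Pecam1/Cdh5 gate (2.14, 6.23 and 4.85 CPM, irradiated over non-irradiated wild-type). Cells with no Ptprc UMI had 1.88, 3.096 and 2.66 CPM, on 29, 3 and 5 UMIs. In the stricter endothelial set it had 2.11, 1.96 and 1.85 CPM, with a log2 ratio of -0.030 for that pair. Trp53bp1, a chromatin-bound adaptor that favours end joining, ranged from 8.59 to 19.8 CPM over the 18 values of 6 gates and 3 libraries, and was highest in the fibroblast gate in each library.

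In the recombination and Fanconi anaemia genes, Brca1, Brca2 and Fancd2 were low: Brca1 ranged from 0.47 to 6.89 CPM, Brca2 from 0.677 to 5.48 and Fancd2, which is monoubiquitinated at stalled forks, from 0.289 to 2.35. Brca1 was apart only in the Pecam1/Cdh5 gate (1.95, 5.19 and 6.89 CPM, irradiated knockout over non-irradiated library), where cells with no Ptprc UMI had 1.62, 2.06 and 3.19 CPM. Restricted to cells with no Mki67 or Top2a UMI the direction turned, with a log2 ratio of -0.10 and 5 UMIs in the irradiated knockout library. Fanca, a subunit of the Fanconi core ligase, was below 5 CPM in the other gates but stood at 1.41 (0.645 to 2.68), 9.96 (6.45 to 14.7) and 7.78 (4.93 to 11.7) CPM in the epithelial gate. The 2 irradiated libraries do not overlap with the non-irradiated one within counting error, with plain ratios of 7.06 (3.19 to 17.2) and 5.52 (2.46 to 13.5).

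Of the end joining genes, Xrcc5, which encodes the larger subunit of the Ku ring that loads on broken ends, led in the epithelial gate. It stood there at 14.3 (11.5 to 17.5), 37.9 (30.6 to 46.3) and 27.1 (21.5 to 33.7) CPM. Irradiated wild-type was 2.65-fold (1.97 to 3.58) and the irradiated knockout library 1.9-fold (1.39 to 2.59) above non-irradiated wild-type. In irradiated wild-type 18.9% of the Xrcc5 UMIs came from 1 cell, against 5.49% and 7.5% in the other libraries. Xrcc6, the partner subunit, did not follow, at 10.2, 7.17 and 8.46 CPM in the same gate. Xrcc4, the scaffold of the ligation step, stood at 15.3, 5.97 and 10.0 CPM in the Pecam1/Cdh5 gate (log2 ratio -0.89 between the wild-type libraries) and at 17.9, 6.19 and 13.8 CPM among its cells with no Ptprc UMI (log2 ratio -1.03, on 276 and 6 UMIs). Prkdc, the DNA-PK catalytic subunit (1.54 to 12.5 CPM), and Lig4, the ligase (1.03 to 7.17 CPM), were apart nowhere.

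Polk, Xrcc5, Fanca, Chek2 and Xpa were the 5 genes higher in the epithelial gate of the irradiated knockout library than in that of non-irradiated wild-type, and the first 3 were also higher in irradiated wild-type. Polk encodes polymerase kappa, a translesion enzyme. It stood at 11.6 (9.11 to 14.6), 31.1 (24.6 to 38.8) and 31.5 (25.4 to 38.5) CPM, with plain ratios of 2.68 (1.92 to 3.74) and 2.71 (1.98 to 3.73). It kept its call, in both pairs, in the 13 alternative settings that could have ended it. Chek2, the effector kinase of ATM, stood at 4.86, 8.37 and 13.9 CPM and was highest in the epithelial gate in all 3 libraries. Xpa, which verifies lesions in nucleotide excision, stood at 15.05, 18.7 and 29.4 CPM.

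Promoter stretches are shown for 4 of these genes, which were higher in the epithelial gate of the irradiated knockout than of the non-irradiated library. They were picked because they hold letters of regulators that are textbook partners of DNA damage, the cell cycle or ciliated cells. Picked in this way, the matches are no test of these regulators, and their part was not tested. The stretches come from RefSeq on GRCm38.p6, from the 250 bases before an annotated start. They run 5′ to 3′ on the gene's strand, with the matched letters in capitals. The Polk and Fanca stretches hold a p53 half-site, the Chek2 stretch the E2F letters TTTNNCGC with C or G at each N, and the Xrcc5 stretch the RFX half-site GTTGCC, all searched on both strands.
Polk, chr13:96519389-96519437, minus strand: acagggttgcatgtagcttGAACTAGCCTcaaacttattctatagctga
Fanca, chr8:123318611-123318660, minus strand: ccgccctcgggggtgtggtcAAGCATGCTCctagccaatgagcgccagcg
Chek2, chr5:110839811-110839858, plus strand: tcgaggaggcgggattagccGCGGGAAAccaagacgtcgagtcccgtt
Xrcc5, chr1:72307219-72307264, plus strand: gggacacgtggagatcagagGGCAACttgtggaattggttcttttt

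The Polk match lies before a start inside the gene; a second entry, before its outermost start, holds none. Of the 30 repair genes with an entry in the promoter table, 2 hold the p53 half-site (6.67%, against 8.2% of 27025 genes), 3 the E2F letters (Chek2, Brca2 and Xrcc6; 10.0% against 2.16%) and 4 the RFX half-site (Xrcc5, Xrcc6, Lig4 and Rpa1; 13.3% against 11.8%). A match describes letters only, and binding was not measured.

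The makeup of the epithelial gate differed between libraries, and the 5 genes divided by it. Ciliated cells, taken as cells with at least 2 UMIs of Foxj1, Ccdc153 and Tmem212 after the values were seen, made up 37 of 448, 31 of 118 and 30 of 190 cells. Foxj1, the ciliated cell transcription factor, stood at 47.0, 170 and 180 CPM in the whole gate. Within the ciliated cells it stood at 276, 384 and 784 CPM, and Sftpc and Scgb1a1 together took 26.1%, 11.5% and 2.72% of their UMIs. The ciliated sets thus also differ between libraries, and the part of this in the values within them was not tested. Fanca was at or below 3 UMIs outside ciliated cells in each library, with 0.562, 0.711 and 1.32 CPM against 5.75, 21.8 and 29.5 CPM within them. Chek2 likewise stood at 2.62, 2.84 and 2.2 CPM outside and 16.3, 15.4 and 53.1 CPM within, and the log2 ratio of the irradiated knockout to the non-irradiated library outside them was -0.083.

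Polk in both irradiated libraries, and Xpa in the irradiated knockout library, were higher outside ciliated cells too. Polk stood there at 5.81, 22.8 and 15.8 CPM, both irradiated libraries above the non-irradiated one, with plain ratios of 3.92 (2.31 to 6.64) and 2.72 (1.64 to 4.55). Within ciliated cells it stood at 41.2, 41.7 and 84.0 CPM. Xpa stood at 14.8, 19.9 and 28.5 CPM outside and 16.3, 17.2 and 32.4 CPM within. Xrcc5 outside ciliated cells was at 11.8, 22.04 and 12.7 CPM, high only in irradiated wild-type, while within them it was at 26.8, 58.0 and 75.2 CPM. The cells outside also differed in makeup. Those with at least 2 UMIs of Lamp3 and Slc34a2 together, which mark alveolar type 2 cells, were 227 of 411, 24 of 87 and 40 of 160. The surfactant gene Sftpc stood at 114402, 27838 and 44323 CPM outside ciliated cells. Polk in those Lamp3 or Slc34a2 cells stood at 6.14, 24.8 and 20.3 CPM, on 23, 14 and 18 UMIs, and Xpa at 11.5, 21.3 and 22.6 CPM, on 43, 12 and 20 UMIs. Each ciliated set, and the Lamp3 or Slc34a2 set of both irradiated libraries, has fewer than 50 cells, so these are values without calls.

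**Figure D4:**
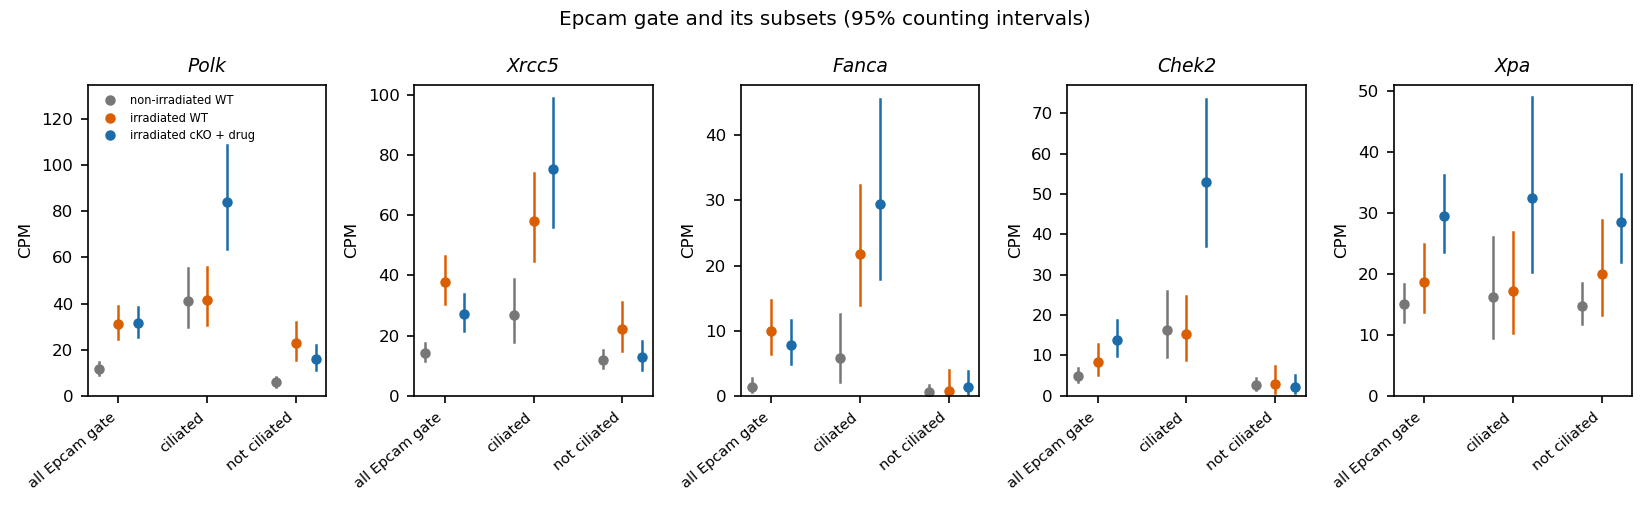
CPM (y axis, from 0) of the 5 genes in the whole epithelial (Epcam) gate, in its ciliated cells and in the rest, for the 3 libraries (colours); lines are exact 95% Poisson intervals. Fanca and Chek2 stay near 0 outside ciliated cells in all 3 libraries, while Polk in the rest is 5.81 CPM in the non-irradiated library and 22.8 and 15.8 CPM in the irradiated ones.

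Polk was also higher in the irradiated libraries among Pecam1/Cdh5 cells once those with a Ptprc UMI were set aside. In the whole Pecam1/Cdh5 gate it stood at 13.0, 11.4 and 12.5 CPM, the same within counting error. Cells with no Ptprc UMI had 15.1, 28.9 and 25.5 CPM, with plain ratios to non-irradiated wild-type of 1.92 (1.25 to 2.84) and 1.69 (1.21 to 2.31). The stricter set with a Cdh5 UMI had 19.97, 41.2 and 34.1 CPM, on 180, 21 and 37 UMIs. In that set the endothelial marker Kdr stood at 720, 2024 and 994 CPM. The mix of endothelial cells differed between libraries, as given above, and its part in these Polk values was not tested. In the fibroblast gate Polk stood at 5.34, 5.18 and 8.01 CPM and was not apart. Polh, the other translesion polymerase, was at or below 2.93 CPM everywhere.

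Beside these, 20 core p53 targets, none of them among the 37, were compared in the same gates. In the epithelial gate 16 of 20 were higher in irradiated than in non-irradiated wild-type (median log2 ratio 0.98, against 0.16 for all genes, of which 25.7% were apart in either direction), in the Pecam1/Cdh5 cells with no Ptprc UMI 16 of 19 (median 1.4, against -0.013, with 19.9% of all genes apart), and in the fibroblast gate 9 of 20 (median 0.55, against 0.02, with 6.1% apart). In the T gate 2 of 19 were higher and 4 lower (median -0.017, against 0.05, with 12.9% apart). Cdkn1a, the CDK inhibitor p21 and a p53 target, stood at 196, 617 and 567 CPM in the epithelial gate and at 235, 203 and 184 CPM in the T gate. The makeup of the epithelial gate differed between libraries, as given above, and its part in these p53 target values was not tested. Of the 5 repair genes listed as p53 targets (Ddb2, Xpc, Polk, Polh and Ercc5), 1 of the 4 measured in the epithelial gate was higher (Polk) and 0 of 4 in the fibroblast gate.

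Of the 8 base excision and single-strand break genes, Apex1, Parp1 and Parp2 were highest in the B gate in all 3 libraries, Ogg1 in the epithelial and Lig3 in the fibroblast gate, and the highest gate of the other 3 differed. Apex1, the abasic site endonuclease, stood at 76.5 (70.6 to 82.8), 83.1 (73.7 to 93.4) and 87.8 (80.2 to 95.9) CPM in the B gate. Parp1, which senses nicks and makes poly(ADP-ribose), stood there at 55.1 (50.1 to 60.4), 79.9 (70.7 to 89.9) and 58.8 (52.7 to 65.6) CPM. For Apex1 the next highest gate in the non-irradiated library was T at 36.2 CPM, and for Parp1 T at 24.4 CPM. Neither was apart between libraries in the B gate. Ogg1, the 8-oxoguanine glycosylase, led in the epithelial gate at 8.93, 10.4 and 14.5 CPM, and its ciliated cells held 35.4, 18.1 and 54.5 CPM against 3.75, 4.27 and 2.63 CPM in the rest. Parp2, Lig3, Xrcc1 and Polb were apart in no gate, except Polb in the NK gate (24.2, 17.5 and 14.3 CPM), lower in the irradiated knockout than in the non-irradiated library but short of 1.5-fold in cells of no other gate (log2 ratio -0.43).

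Lig1, the replicative ligase that joins Okazaki fragments and long-patch repair tracts, was the 1 gene of the 37 that was apart in the T gate between the wild-type libraries. It stood at 18.7 (16.5 to 21.0), 35.8 (33.3 to 38.4) and 21.4 (20.1 to 22.9) CPM in the T gate, from 272, 771 and 903 UMIs. Irradiated wild-type was 1.92-fold (1.67 to 2.21) above non-irradiated wild-type, and the irradiated knockout library was at 0.599 (0.543 to 0.66) of irradiated wild-type. The intervals of the other 2 libraries overlap, and irradiated wild-type lies above both. With median-of-ratios scaling the second of these log2 ratios moved from -0.63 to -0.54 and was no longer past 1.5-fold.

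Within the T gate the pattern held in some subsets only. Cells with Cd4 and no Cd8 UMI had 31.1, 61.8 and 35.1 CPM of Lig1, and cells with Cd8a or Cd8b1 and no Cd4 UMI had 13.7, 32.2 and 15.4 CPM. Cells with a Trdc UMI and neither Cd4 nor Cd8, which marks γδ T cells, had 22.3, 22.1 and 19.9 CPM, and so did not differ beyond counting error. Cells with none of these had 17.0, 32.5 and 23.0 CPM.

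Cell cycle genes ran in the same direction as Lig1, and their part in the result beyond the values below was not tested. Of 24 cell cycle genes, 10 were higher in the T gate of irradiated than of non-irradiated wild-type (median log2 ratio 0.50, against 0.05 for all genes, of which 12.9% were apart in either direction), and 4 were lower in the irradiated knockout library than in irradiated wild-type (median -0.39, against -0.05, with 2.02% of all genes apart). Cells of the T gate with an Mki67 or Top2a UMI made up 11.03%, 14.8% and 13%, and had 51.7, 80.6 and 55.8 CPM of Lig1. Cells without these UMIs had 13.3, 21.96 and 13.99 CPM. The order was the same, but the log2 ratios of 0.56 and -0.51 were short of 1.5-fold. Of the other 7 S phase genes among the 37 (Brca1, Brca2, Chek1, Fancd2, Fanca, Msh6 and Rpa2) none was apart in the T gate between the wild-type libraries, and the median log2 ratio of all 8 was 0.31. Most are low genes, where the 5 CPM added understates changes. In non-irradiated and irradiated wild-type Chek1 stood at 2.89 and 5.53 CPM, Msh6 at 8.45 and 12.3, and Rpa2 at 30.1 and 37.7. The 4 recombination and Fanconi genes together stood at 6.94 and 11.4 CPM.

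**Figure D5:**
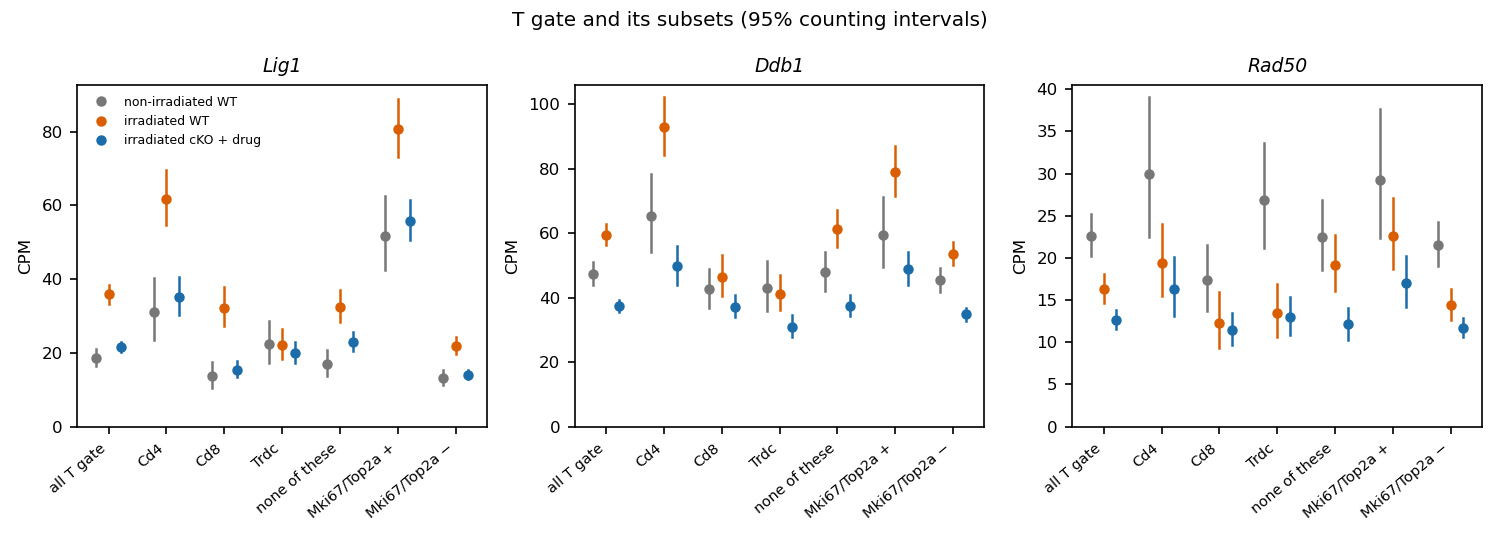
CPM (y axis, from 0) of Lig1, Ddb1 and Rad50 in the whole T gate and in subsets by Cd4, Cd8, Trdc and by Mki67 or Top2a UMIs, for the 3 libraries (colours); lines are exact 95% Poisson intervals. Lig1 of irradiated wild-type is above both other libraries in the Cd4 and Cd8 subsets (61.8 and 32.2 CPM) and level with them in the Trdc subset (22.1 CPM).

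In the NK gate Lig1 did not differ (28.3, 28.3 and 26.4 CPM). In the Pecam1/Cdh5 gate it stood at 17.5, 36.1 and 40.2 CPM, but cells with a Ptprc UMI had 20.7, 40.9 and 47.9 CPM against 16.3, 21.7 and 21.8 CPM in the rest. The same division was seen for Rpa2, with 33.8, 37.1 and 51.7 CPM in cells with a Ptprc UMI and 14.9, 22.7 and 22.8 CPM in the rest, and for Ddb2, with 4.86, 13.9 and 9.76 CPM against 3.62, 2.06 and 5.84 CPM. Xpc (19.6, 9.34 and 9.39 CPM in the whole gate) was also low in cells with a Ptprc UMI (11.2, 6.93 and 5.33 CPM), and in the rest stood at 22.7, 16.5 and 19.1 CPM. Ercc5 (23.7, 12.7 and 18.6 CPM) stood at 26.3, 21.7 and 29.7 CPM in the rest, and Rad50 (37.1, 22.8 and 23.2 CPM) at 40.5, 36.1 and 26.6 CPM. None of these 6 was apart between libraries among cells with no Ptprc UMI, where Ddb2 had too few UMIs to be measured. Xrcc5 (4.71, 10.4 and 7.20 CPM in the whole gate) stood at 3.95, 14.4 and 3.72 CPM in the rest, where 1 cell held 57.1% of the 14 UMIs of irradiated wild-type. Apex1 (20.8, 26.5 and 35.1 CPM) stood at 17.5, 18.6 and 21.8 CPM. Within this gate, the 3 genes that were apart in its cells with no Ptprc UMI but not in the whole gate, beside Polk, were Atr (14.3, 21.7 and 10.6 CPM), Ercc1 (27.5, 32.0 and 17.5 CPM) and Mre11a (7.7, 11.4 and 15.4 CPM). Their counts in irradiated wild-type are low there, with 21, 31 and 11 UMIs. Mre11a was apart between the irradiated knockout and non-irradiated libraries, so its 11 UMIs are not part of that call.

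Of the 7 nucleotide excision genes, Ddb1, Ercc1 and Ercc5 were highest in the fibroblast gate in all 3 libraries, Ddb2 in the T gate, Xpa in the NK gate and Ercc2 in the B gate, and the highest gate of Xpc differed. Ddb1, the adaptor of the CUL4 ligase that with DDB2 binds ultraviolet lesions, stood at 108 (105 to 112), 141 (130 to 152) and 128 (121 to 136) CPM there. Ercc5, the 3′ endonuclease XPG, stood at 31.8, 37.8 and 30.3 CPM, Ercc1, a subunit of the 5′ nuclease, at 28.1, 23.0 and 24.2, and Xpc, the lesion sensor, at 24.2, 21.4 and 20.6. In irradiated wild-type Xpc was higher in the epithelial gate, at 26.7 CPM. None of the 4 was apart in any pair in the fibroblast gate. The highest log2 ratio between the wild-type libraries in that gate was that of Ddb1 (0.37, plain ratio 1.3), whose counting interval leaves out 1 while the size is below 1.5-fold. Atr and Ercc1 were the lowest there (-0.31 and -0.24), and Lig4 was next to Ddb1 (0.28).

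In the T gate Ddb1 stood at 47.4, 59.5 and 37.3 CPM, and the irradiated knockout library was lower than irradiated wild-type (log2 ratio -0.61, plain ratio 0.627 (0.582 to 0.675)). With median-of-ratios scaling the log2 ratio was -0.52, short of 1.5-fold. The Cd4 subset had 65.4, 93.0 and 49.7 CPM, the Cd8 subset 42.6, 46.4 and 37.2 CPM and the Trdc subset 43.1, 41.2 and 31.0 CPM. The irradiated knockout library was the lowest of the 3 in each subset. Xpc in the B gate stood at 10.1, 4.68 and 6.98 CPM, lower in irradiated than in non-irradiated wild-type on 16 and 82 UMIs, and short of 1.5-fold in cells of no other gate (log2 ratio -0.49). Ddb2, highest in the T gate in all 3 libraries (9.62, 11.9 and 10.9 CPM), and Ercc2, a helicase of TFIIH (5.58 to 16.1 CPM over all gates), did not differ within the T, B, NK, fibroblast or epithelial gate.

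Msh6, which acts in mispair recognition and is the 1 mismatch repair gene of the 37, stood at 15.6, 25.2 and 14.3 CPM in the B gate, where the irradiated knockout library was lower than irradiated wild-type (log2 ratio -0.64, plain ratio 0.569 (0.414 to 0.78)). With median-of-ratios scaling the log2 ratio was -0.54. As with Atr, the irradiated wild-type library was the highest of the 3.

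Of the subunits of RPA, which coats single-stranded DNA, Rpa2 stood out in the NK gate at 83.3 (71.0 to 97.1), 109 (94.3 to 126) and 115 (103 to 128) CPM. With 5 CPM added to both sides, this was 3.59, 3.58 and 3.47 times the mean of the other gates. The next highest gates were at 30.1 CPM (T), 37.7 CPM (T) and 43.2 CPM (Pecam1/Cdh5). Rpa1, the large subunit, did not share this excess, with 14.4, 32.8 and 22.03 CPM in the NK gate and 27.0, 28.8 and 23.6 CPM in the T gate. Irradiated wild-type was 2.28-fold (1.43 to 3.72) above non-irradiated wild-type for Rpa1 in the NK gate. Parp1 in the same gate was 1.78-fold (1.005 to 3.23) above, at 10.8, 19.2 and 14.3 CPM, and its call ended with median-of-ratios scaling (log2 ratio 0.54). Between the irradiated knockout and irradiated wild-type libraries the lowest log2 ratios of the NK gate were those of Rpa1 and Atr (both -0.48), and the highest were those of Ercc1 and Xpa (0.31 and 0.15). Nbn in the NK gate stood at 15.4, 10.2 and 7.71 CPM, lower in the irradiated knockout than in the non-irradiated library on 21 and 30 UMIs.

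In pairs and gates with no gene apart, the log2 ratios with 5 CPM added had these extremes. In the epithelial gate the irradiated knockout against the irradiated wild-type library ranged from Rad50 and Xpc (-0.47 and -0.45) to Ercc2 and Xpa (0.52 and 0.54). In the fibroblast gate that pair ranged from Ercc5 and Rpa1 (-0.28 and -0.24) to Polk and Atr (0.35 and 0.50), and the irradiated knockout against the non-irradiated library from Xpc and Ercc1 (-0.19 and -0.18) to Polk and Rpa2 (0.33 and 0.46). In the B gate that last pair ranged from Lig4 and Xpc (-0.35 and -0.33) to Fanca and Chek1 (0.49 and 0.52). Both are low genes, and their plain ratios were 2.8 (1.34 to 6.17; 4.11 against 1.47 CPM) and 2.38 (1.3 to 4.46; 5.54 against 2.33 CPM).

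Exons of 19 of the 37 genes overlap those of a gene on the opposite strand in GENCODE vM21, and 0 overlap another gene on their own strand. Among those named above this touches Lig1 (Zswim9), Ddb1 (Tkfc), Apex1 (Tmem55b), Fanca (Zfp276), Xpa (Ncbp1), Msh6 (Fbxo11), Atr (1700065D16Rik and Gm16794), Ogg1 (Camk1), Xrcc4 (Tmem167) and Ddb2 (Acp2). Whether the counting used strand is not given in the sources used here, so reads of these pairs may not be told apart. Polk, Xrcc5, Chek2, Rad50, Rpa2, Parp1, Nbn, Xpc and Ercc5 have no such overlap.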

How the data were processed

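Single-cell RNA of mouse lung was counted by the authors as whole UMI counts per gene and barcode, per the file headers, which give software version 3.1.0 without a name. The build is mm10 per the submitters' processing notes. The deposited counts are not normalized. No other step of the authors is given in the sources used here. The lowest UMI total of any listed barcode is 500.

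Cells with at least 250 genes and at most 15% mitochondrial UMIs were gated by UMIs: T, at least 2 of Cd3d, Cd3e and Cd3g; B, at least 2 of Cd79a; NK, at least 1 of Ncr1 and no Cd3; Pecam1/Cdh5, at least 2; fibroblast, at least 2 of Col1a1 and Col1a2; epithelial, at least 1 of Epcam and 0 of Ptprc. Counts were summed per gate and scaled to CPM, with exact Poisson intervals and an exact conditional interval for ratios. Doublets were kept, and removed in an alternative (Scrublet in scanpy 1.11.5, 0.8% per 1000 barcodes, seed 1). Intervals came from scipy 1.17.1, tables from pandas 2.3.3 and numpy 2.4.6, and plots from matplotlib 3.10.9, in Python 3.11.15. The scoring was tried on simulated Poisson counts with genes set apart by known folds. These hold no spread between cells or animals and no shift in makeup, so they cannot show how such spread affects the calls. Genes are named when apart, or else the 2 highest and 2 lowest per gate and pair, or when leading a gate. Members, lists and rules were chosen with earlier results of these data known. Positions are from GENCODE vM21 (GRCm38).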

Additional observations from a re-analysis of the deposited data

How the results depend on the processing

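With 1 library per group, nothing here measures the spread between animals. No paired analysis was possible because each group has 1 library. The members called apart in the irradiated wild-type to non-irradiated, irradiated knockout to irradiated wild-type and irradiated knockout to non-irradiated pairs numbered 19, 5 and 14. They numbered 30, 12 and 28 with 1 CPM added, 3, 0 and 3 with 20 CPM added, and 4, 0 and 2 at 2-fold, where 4 in place of 12 led a gate. The first count was 12 with 30 expected UMIs, 12 without cells of the Pecam1/Cdh5 gate that had a Ptprc UMI, and 11 with the stricter endothelial set. The second was 3 with median-of-ratios scaling, 9 in cells with Xist and no Y-linked UMI, 2 in cells with no Mki67 or Top2a UMI, and 8 without ciliated cells. In cells of exactly 1 gate the counts were 13, 14 and 6, of which 8, 5 and 5 were among the 19, 5 and 14. The sets without Ptprc or ciliated cells were chosen after seeing the data. Gene by gene, under the alternatives that could end a call, 326 values kept it, 166 kept the direction only, and 7 turned: Brca1 in cells with no Mki67 or Top2a UMI (-0.10, Pecam1/Cdh5 gate), Ddb2 without Ptprc cells (-0.29), Ddb2 (-0.30 for irradiated wild-type, -0.14 for the irradiated knockout library), Chek1 (-0.030) and Rad50 (0.19) in the stricter endothelial set, and Chek2 without ciliated cells (-0.083). All of these but Rad50 then had 5 UMIs or fewer in the irradiated library; the cause was not tested. Median-of-ratios scaling moved the median of all genes by up to 0.16 (epithelial gate) and raised the share of higher calls among all genes from 34.8% to 47.5% in the Pecam1/Cdh5 gate and lowered it from 65.3% to 48.2% in the epithelial gate, between the wild-type libraries. Depth limits Fancd2, Polh, Fanca, Brca1, Brca2, Chek1 and Lig4, which were measured in at most 3 gates in at least 1 pair.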
